A study of Mus musculus with 6 samples.

Results

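The genes described here are the Hox genes, the hindlimb factors Pitx1 and Tbx4, and 5 other transcription factors of limb patterning, as counted in 3 tissues of the mouse hind leg. They were chosen by symbol, as every gene named Hoxa, Hoxb, Hoxc or Hoxd followed by a number, together with Pitx1, Tbx4, Tbx5, Meis1, Meis2, Shox2 and Lmx1b. This gave 45 genes of 20744 in the deposited tables, of which 38 were Hox genes, with 11 in the Hoxa cluster on chromosome 6, 10 in Hoxb on chromosome 11, 9 in Hoxc on chromosome 15 and 8 in Hoxd on chromosome 2. Of the 45 genes, 41 were listed in the count tables of all 3 tissues and 40 passed the filter on low counts and were tested. Hoxb1, Hoxb13 and Hoxd12 were listed in the fat pad counts and not in the other 2 tables, Hoxd13 was not listed in the fat pad counts, and Hoxc12 was removed by the filter.

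RNA was sequenced from the infrapatellar fat pad (fat inside the knee joint, below the kneecap), the Achilles tendon and the rectus femoris (a thigh muscle), with 2 libraries each, from mice that the series title calls female. Strain, age, genotype and the number of animals in a library are not given in the labels used here. Letrozole, a blocker of oestrogen synthesis, is named in the title of each fat pad library and in no other title. No label separates treated from control within a tissue. Drug and tissue therefore cannot be told apart in comparisons of the fat pad with the other tissues. The titles also carry a code that is shared by the libraries of a tissue and differs between tissues. What the code stands for is not given. If it marks separate preparation or sequencing batches, batch and tissue cannot be told apart in any comparison, tendon over muscle included. Whether the 2 libraries of a tissue are from separate animals is not labelled, so p-values measure only how far these libraries differ, which may be technical.

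Hox genes encode homeodomain transcription factors that lie in 4 clusters, and in the embryo the genes at one end of a cluster act in the head and neck while those at the other end act in the trunk, tail and limbs. In the limb the posterior genes pattern the upper, middle and lower segments, and connective tissue cells of adult limbs are known to keep part of this pattern. Pitx1 and Tbx4 are the transcription factors that specify a hindlimb, and Tbx5 is their forelimb counterpart. Hox proteins bind DNA together with partners of the TALE class, which include the Meis and Pbx proteins.

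Total counts were between 56216295 and 106319037 in a library, and levels below are CPM (read counts scaled to a common library size) scaled by the trimmed mean of M-values (TMM), called normalised CPM. A count of 0 allowed at most 0.0267 to 0.0735 normalised CPM, depending on the library, taking 3 counts as the limit and covering counting error only. The summed adipocyte, fast fibre and tenocyte markers followed the label that names the 3 tissues, although the source label names the fat pad for every library. The summed level of 6 adipocyte markers was 70719 and 77093 normalised CPM in fat pad libraries 1 and 2, 3260 and 716 in tendon, and 431 and 999 in muscle. The 7 fast fibre markers summed to 95.6 and 86.2 in the fat pad, against 9362 and 46914 in tendon and 227087 and 202534 in muscle, so the tendon libraries held muscle transcripts and differed in how much. The 5 slow fibre markers ran the other way between the tendon libraries and were highest there, at 2.80 and 1.88 in the fat pad, 8057 and 4287 in tendon, and 15.0 and 38.8 in muscle. The 3 Schwann cell markers summed to 17.3 and 16.0 in the fat pad, 673 and 39.3 in tendon, and 90.6 and 111 in muscle. The 6 tenocyte markers summed to 97.5 and 87.0 in the fat pad, against 9446 and 13358 in tendon and 1119 and 721 in muscle, and the 7 neutrophil and marrow markers summed to 1803 and 247 in fat pad libraries 1 and 2 and to at most 6.39 elsewhere. The 5 synovial lining markers summed to 15962 and 18257 in the fat pad and at most 1353 elsewhere, though Clic5 among them was highest in muscle. The 4 erythroid markers summed to 24019 and 7592 in the fat pad and at most 197 elsewhere. Bone markers reached 156 and 56.0 in the fat pad and at most 13.2 elsewhere. Chondrocyte markers summed to 141 and 91.4 in the fat pad, 1136 and 1026 in tendon, and 44.0 and 31.6 in muscle. The part of these cell types in the results below was not tested, and in bulk tissue fewer cells of a type and less RNA per cell cannot be told apart.

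Against muscle, the fat pad stood higher in Pitx1, Shox2, Meis2 and Hoxa11 and lower in Hoxc4, Hoxc6, Hoxc10 and Hoxc11, the last at 0 counts in both libraries. The quasi-likelihood test of edgeR, with Benjamini-Hochberg adjusted p under 0.05 over 15856 genes, called 6 of the 40 members higher in the fat pad and 9 lower, or 15% and 22.5%. Among these, Hoxa6, Hoxc11 and Hoxc13 passed the filter on low counts only through tissues where they were higher. The direction of their calls here carries no weight. Of all genes tested, 29.8% were called higher and 29.6% lower, so neither share of the members stood above the background. The median log2 fold change was -0.24 over the members and 0.14 over all genes. Scaled by total counts, 8 members were called higher and 8 lower, beside 40.0% and 21.6% of all genes, and with DESeq2's size factors 6 and 9, beside 30.6% and 28.9%. In the deposited TPM tested with limma, 5 of 37 members were higher and 20 lower, beside 20.3% and 38.6%.

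Against tendon, more members were called lower in the fat pad than higher. Lower calls fell in all 4 clusters, but no Hoxa call was kept with each library left out. Of the lower calls, Hoxa6, Hoxb8, Hoxc11 and Hoxd11 passed the filter on low counts only through other tissues, so their direction carries no weight. The share of members called lower was not tested against that of all genes. The same test called 3 members higher and 16 lower, or 7.5% and 40%, beside 27.2% and 31.4% of all genes. The median was -1.11 over the members and -0.01 over all genes. With DESeq2's size factors 6 members were higher and 15 lower, beside 29.3% and 29.6% of all genes, and with total counts 1 and 17, beside 23.1% and 34.4%. In the TPM columns 0 were higher and 23 lower, beside 10.7% and 54.3%.

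Tendon stood above muscle in Pitx1, Tbx4, Shox2, Hoxa11, Hoxa13, Hoxd4 and Hoxd9, and below it in Hoxc6, Hoxc8 and Hoxc10. Hoxc13 and Hoxd11 were also called higher. With 0 counts in muscle they passed the filter on low counts only through other tissues, so that direction carries no weight. With them, the test called 9 members higher in tendon and 3 lower, or 22.5% and 7.5%, beside 13.3% and 12.7% of all genes. The median was 0.49 over the members and 0.10 over all genes. None of the 12 calls held without muscle library 2 (edgeR adjusted p = 0.0511 to 0.142), and 1 held without muscle library 1, where the others had adjusted p from 0.075 to 0.235. With total counts 16 members were called higher and 2 lower, beside 37.6% and 2.51% of all genes, and in the TPM columns 13 and 4, beside 29.1% and 3.57%. Over the 3 tissues at once, edgeR's F test called 24 of the 40 members different in some tissue, beside 69.2% of all genes. All fold changes depend on the TMM scaling used. Total counts in its place moved the median of all genes by 0.51 for fat pad over muscle, by -0.22 for fat pad over tendon and by 0.73 for tendon over muscle (log2), and with DESeq2's size factors the shifts were 0.04, 0.11 and -0.07.

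**Figure D1:**
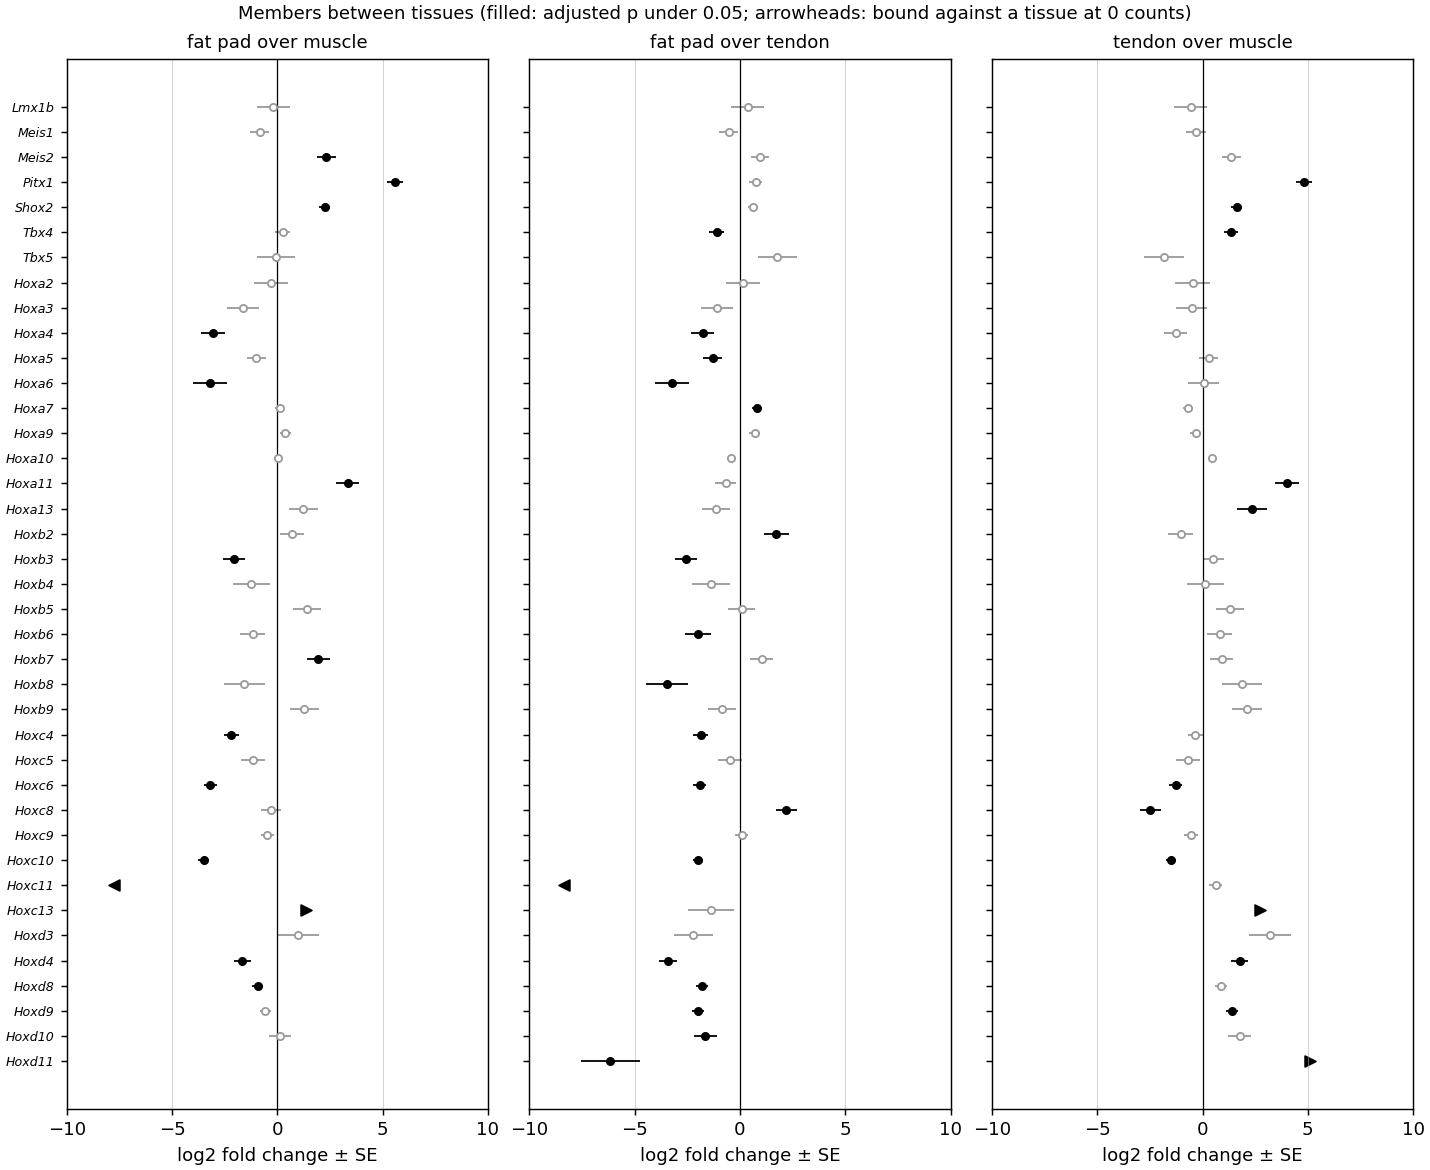
Log2 fold change of the tested members shown (points) with its standard error (bars), for fat pad over muscle, fat pad over tendon and tendon over muscle, with filled points for an adjusted p under 0.05 by edgeR's quasi-likelihood test and arrowheads for a bound against a tissue at 0 counts. Pitx1 lay at 5.59 and 4.84 over muscle in the fat pad and tendon, and the Hoxc11 arrowheads point left in both fat pad panels.

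Pitx1 (ENSMUSG00000021506, chromosome 13) separated the fat pad and tendon from the thigh muscle. It stood at 24.4 and 15.1 normalised CPM in fat pad libraries 1 and 2, at 12 and 11.5 in tendon, and at 0.490 and 0.330 in muscle, from 20 and 15 counts. All libraries of the fat pad and tendon lay above both muscle libraries. The fat pad averaged 19.7 ± 6.55 and muscle 0.410 ± 0.113 (SD, n = 2 each). That is a log2 fold change of 5.59 ± 0.39 (SE; edgeR adjusted p = 6.5e-05), and the call held with each library left out in turn. Tendon over muscle had 4.84 ± 0.38 (edgeR adjusted p = 0.00326), which became 4.59 with adjusted p = 0.0511 without muscle library 2. The log2 fold change of fat pad over tendon was 0.75 ± 0.31 and was not called (edgeR adjusted p = 0.0716), while the DESeq2 Wald test gave 0.85 with adjusted p = 0.0283. In the deposited TPM Pitx1 stood at 30.5 and 19.5 in the fat pad, against 18.8 and 31.9 in tendon and 2.61 and 1.99 in muscle, so the fat pad and tendon overlapped there.

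Tbx4 (ENSMUSG00000000094, chromosome 11), which acts downstream of Pitx1 in the hindlimb bud, was highest in tendon and overlapped between the fat pad and muscle. It stood at 3.31 and 4.27 normalised CPM in the fat pad, against 8.51 and 7.79 in tendon and 2.597 and 3.764 in muscle. Both tendon libraries lay above the other 4. Fat pad over tendon was -1.11 ± 0.34 (edgeR adjusted p = 0.0289), a call lost without fat pad library 1 or either tendon library (adjusted p = 0.0597 to 0.113). The tendon libraries exceeded muscle by 1.36 ± 0.35 (edgeR adjusted p = 0.033), lost without any 1 of the tendon or muscle libraries (0.0521 to 0.207). The fat pad over muscle difference was 0.25 ± 0.34 (edgeR adjusted p = 0.552).

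Tbx5 (chromosome 5), the forelimb T-box factor, was counted in every library at a low level. It had 135 and 242 counts in the fat pad, against 74 and 8 in tendon and 81 and 84 in muscle, which is 1.49 and 2.15 normalised CPM in the fat pad, against 0.953 and 0.110 in tendon and 1.98 and 1.85 in muscle. The tendon libraries lay below the other 4 and were far apart, and no comparison was called (edgeR adjusted p = 0.144 to 0.952). Per kilobase of exon, which allows levels of different genes to be set side by side, Tbx4 exceeded Tbx5 in each library. The ratio was 3.04 and 2.73 in the fat pad, against 12.3 and 97.4 in tendon and 1.80 and 2.80 in muscle, with the value of 97.4 resting on 8 counts of Tbx5. The deposited TPM, also scaled by length, had Tbx5 above Tbx4 in muscle library 1 and the pair nearly equal in muscle library 2. Tbx4 had 1.403 and 1.873 TPM in the fat pad, against 6.03 and 6.95 in tendon and 2.26 and 2.12 in muscle, and Tbx5 had 1.00 and 1.49 in the fat pad, against a listed 0 and 0.786 in tendon and 2.79 and 2.09 in muscle.

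Shox2, a homeodomain factor needed for growth of the upper limb bones, followed Pitx1 with a smaller range. It stood at 28.4 and 25.9 normalised CPM in the fat pad, against 21.6 and 13.7 in tendon and 5.66 and 5.75 in muscle, with no overlap between tissues. In the deposited TPM the fat pad, at 12.5 and 11.8, overlapped with tendon, at 11.6 and 14.8. The log2 fold change of fat pad over muscle was 2.25 ± 0.27 (edgeR adjusted p = 0.000459) and held with each library left out. Over muscle, tendon had 1.63 ± 0.27 (edgeR adjusted p = 0.0109), with adjusted p of 0.0721 and 0.0916 without muscle library 2 and without library 1, and fat pad over tendon was 0.62 ± 0.26 (edgeR adjusted p = 0.0757).

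Meis2, a TALE partner of Hox proteins, was higher in fat pad libraries than in muscle. It stood at 9.31 and 7.73 normalised CPM in the fat pad, against 5.44 and 3.39 in tendon and 1.18 and 2.22 in muscle, again with no overlap. In the deposited TPM the fat pad, at 1.087 and 0.934, overlapped with tendon, at 0.947 and 0.861. Fat pad over muscle was 2.32 ± 0.45 (edgeR adjusted p = 0.00413), and the other 2 comparisons were not called (0.95 ± 0.43 over tendon, adjusted p = 0.0967, and 1.37 ± 0.44 for tendon over muscle, adjusted p = 0.0603). Meis1, its close relative, stood at 1.91 and 4.66 in the fat pad, against 4.84 and 4.71 in tendon and 6.20 and 5.64 in muscle, with no call (edgeR adjusted p = 0.153 to 0.645). Lmx1b, the homeodomain factor of the dorsal limb and kneecap, stayed at or below 1.37 normalised CPM, with 71 and 111 counts in the fat pad, against 76 and 29 in tendon and 27 and 62 in muscle, and its tissues overlapped. Fat pad over tendon for Lmx1b was 0.36 ± 0.78, and no comparison of it was called.

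**Figure D2:**
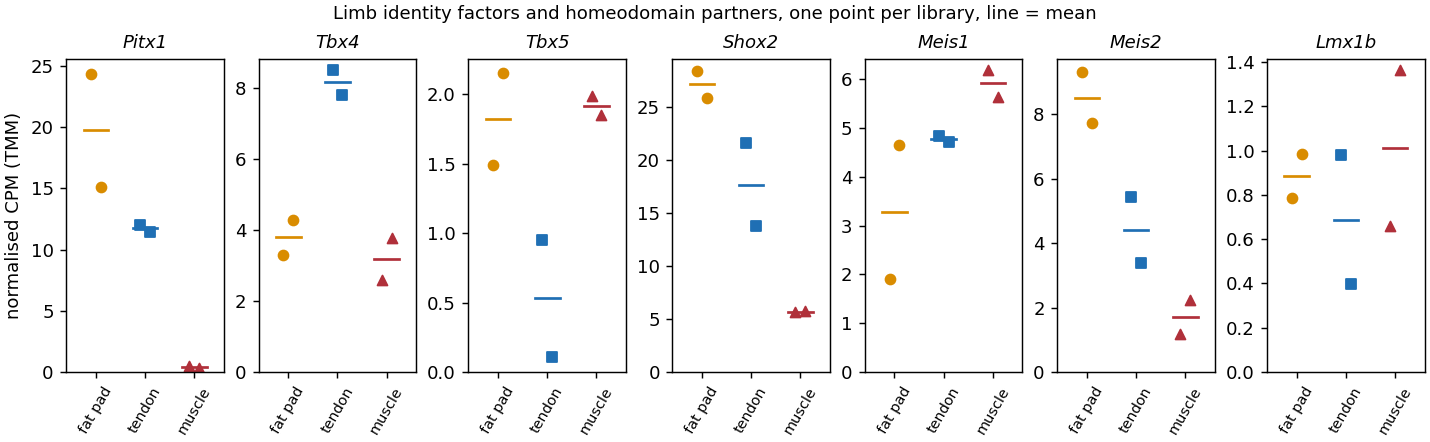
Normalised CPM (TMM, linear axes that differ between genes) of the 7 factors that are not Hox genes in each library (points) with the mean of the 2 libraries (lines), for the fat pad, tendon and muscle. Pitx1 lies at 0.490 and 0.330 in muscle and at 11.5 or more in the other libraries, and Tbx4 is highest in tendon at 8.51 and 7.79.

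Of the 8 tested Hoxc genes, 4 were called lower and 1, Hoxc13, higher in fat pad over muscle, beside 29.6% and 29.8% of all genes. The median log2 fold change of the 8 genes was -1.67. Hoxc10 (ENSMUSG00000022484), a posterior gene known from the hindlimb and lumbar trunk, stood at 9.72 and 7.59 normalised CPM in the fat pad, against 27.6 and 41.2 in tendon and 104 and 90.9 in muscle. The tissues did not overlap, and the order was muscle, tendon, fat pad. The fat pad over muscle difference was -3.49 ± 0.27, an 11.2-fold lower mean level (edgeR adjusted p = 8.11e-05), and fat pad over tendon was -1.99 ± 0.25 (adjusted p = 0.000611), both kept with each library left out. Tendon over muscle was -1.502 ± 0.25 (edgeR adjusted p = 0.0111), with adjusted p of 0.0645 and 0.0898 without muscle library 2 and without library 1. The deposited TPM of Hoxc10 was 19.7 and 15.9 in the fat pad, against 164 and 121 in tendon and 226 and 248 in muscle.

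Hoxc11 (ENSMUSG00000001656), the next gene of the cluster, had 0 counts in both fat pad libraries, 827 and 667 in tendon, and 251 and 305 in muscle. Against 3 counts per library, its fat pad level was at least 215-fold lower than that of muscle and at least 331-fold lower than that of tendon, where it averaged 9.91 ± 1.05 normalised CPM. Both calls held with each library left out (edgeR adjusted p = 6.18e-05 and 7.55e-05 with all libraries), and tendon over muscle was 0.62 ± 0.32 (adjusted p = 0.192). Hoxc11 passed the filter on low counts only through tendon and muscle, so the direction of its fat pad calls carries no weight. Of the 16964 genes listed in all 3 count tables, 306 had 0 counts in both fat pad libraries and 12 of those had at least 100 counts in each of the other 4 libraries. Beside Hoxc11 these were Fgf6, Fitm1, Gm52968, Mettl21e, Myod1, Ostn, Peg10, Pitx3, Tceal5, Tmem233 and Trim72, of which some, such as the myogenic regulator Myod1, are known from muscle. The fat pad TPM does not list Hoxc11, and the fat pad counts list 20516 genes where those of tendon and muscle list 17120 each. Whether the tables were counted with the same annotation was not stated in what was used here, and with another annotation a 0 need not mean the same in each. The posterior neighbour Hoxc13 passed the filter on low counts only through fat pad and tendon, so its direction over muscle carries no weight. It stayed below 1 normalised CPM, with 18 and 18 counts in the fat pad, against 42 and 28 in tendon and 0 and 0 in muscle. That is at least 2.57-fold higher in the fat pad and at least 6.63-fold higher in tendon, each over muscle, and both calls were lost when any 1 of the 6 libraries was left out (edgeR adjusted p = 0.0618 to 0.15).

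Hoxc6, a central gene, stood at 1.12 and 1.20 normalised CPM in the fat pad, against 4.73 and 3.99 in tendon and 10.7 and 10.4 in muscle. Hoxc4 stood at 1.16 and 1.24 in the fat pad, against 3.98 and 4.69 in tendon and 5.37 and 5.55 in muscle. Both genes were lowest in the fat pad with no overlap between tissues in normalised CPM. In the deposited TPM Hoxc4 overlapped between tendon, at 7.63 and 7.33, and muscle, at 8.87 and 7.50. The log2 fold change of fat pad over muscle was -3.19 ± 0.32 for Hoxc6 and -2.18 ± 0.36 for Hoxc4, and fat pad over tendon was -1.91 ± 0.31 and -1.85 ± 0.36 (edgeR adjusted p = 0.000214 to 0.00394), all kept with each library left out. Hoxc6 was lower in tendon than in muscle, with a log2 fold change of -1.28 ± 0.30 (edgeR adjusted p = 0.0257), a call lost without any 1 of the tendon or muscle libraries (0.0641 to 0.173) and with scaling by total counts. Hoxc8 went another way, at 4.50 and 2.48 in the fat pad, against 0.683 and 0.838 in tendon and 3.48 and 5.04 in muscle, so that tendon lay below the other 2 tissues. Fat pad over tendon was 2.20 ± 0.49 (edgeR adjusted p = 0.00788), whereas in the TPM columns it was 0.31 and limma did not call it (adjusted p = 0.386). Tendon over muscle was -2.48 ± 0.50 for Hoxc8 (edgeR adjusted p = 0.0176), lost without tendon library 1 or either muscle library (0.0593 to 0.0983). edgeR called neither Hoxc9 nor Hoxc5 in a comparison, with Hoxc9 at 5.30 and 7.91 in the fat pad, against 5.50 and 7.02 in tendon and 10.46 and 7.925 in muscle.

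Of the 6 tested Hoxd genes, Hoxd4, Hoxd8, Hoxd9 and Hoxd10 stood highest in tendon. Hoxd3 and Hoxd11 did so too, but they passed the filter on low counts only through tendon, so their order carries no weight. Hoxd9 stood at 3.50 and 5.02 normalised CPM in the fat pad, against 15.7 and 18.0 in tendon and 5.83 and 6.80 in muscle. Hoxd8 stood at 8.77 and 8.79 in the fat pad, against 22.9 and 38.9 in tendon and 16.0 and 17.8 in muscle. Hoxd10 stood at 0.929 and 1.67 in the fat pad, against 3.37 and 4.81 in tendon and 1.49 and 0.902 in muscle. In these 3 genes both tendon libraries lay above the other 4, and only in Hoxd10 did the fat pad and muscle overlap. The fat pad over tendon difference was -1.98 ± 0.29 for Hoxd9, -1.81 ± 0.28 for Hoxd8 and -1.65 ± 0.54 for Hoxd10 (edgeR adjusted p = 0.00109, 0.00155 and 0.0346). The call of Hoxd10 was lost without fat pad library 1, tendon library 2 or muscle library 1 (0.0508 to 0.138), and those of Hoxd8 and Hoxd9 were kept. For Hoxd8 the fat pad was also below muscle, with a log2 fold change of -0.94 ± 0.28 (edgeR adjusted p = 0.0238), a call lost in 4 of the 6 fits without 1 library (0.0658 to 0.107) and with scaling by total counts. Tendon over muscle was 1.41 ± 0.28 for Hoxd9 (edgeR adjusted p = 0.0173, 0.0848 and 0.131 without muscle library 2 and without library 1). For Hoxd8 and Hoxd10 it was 0.87 ± 0.28 and 1.77 ± 0.55, neither called (adjusted p = 0.0586 and 0.0546).

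Hoxd11 (ENSMUSG00000042499), which patterns the lower leg and forearm together with Hoxa11, had 0 and 7 counts in the fat pad, against 174 and 192 in tendon and 0 and 0 in muscle. Its level in tendon was 2.44 ± 0.28 normalised CPM, at least 35.0-fold higher than in muscle (edgeR adjusted p = 0.0214, 0.0871 and 0.107 without muscle library 2 and without library 1). The log2 fold change of fat pad over tendon was -6.15 ± 1.39 (edgeR adjusted p = 0.0107). Hoxd11 passed the filter on low counts only through tendon, so the direction of its calls carries no weight. Hoxd4 stood at 0.874 and 0.578 in the fat pad, against 8.69 and 6.97 in tendon and 2.38 and 2.24 in muscle, with fat pad over tendon at -3.43 ± 0.42 and fat pad over muscle at -1.67 ± 0.40 (edgeR adjusted p = 0.000541 and 0.0101). Tendon over muscle was 1.76 ± 0.40 for Hoxd4 (adjusted p = 0.0229, lost without tendon library 1 or either muscle library at 0.0981 to 0.142). Of the exonic bases of Hoxd4 and Hoxd3, 52.3% and 62.4% are shared with another gene on the same strand, so their counts are uncertain. Hoxd13, the most posterior Hoxd gene, had 0 and 8 counts in tendon and 3 and 3 in muscle, and Hoxd12 had 16 and 34 in the fat pad.

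The windows around the transcription starts of 3 Hoxd genes called lower in fat pad than tendon, and of Shox2, called higher in fat pad than muscle, are printed to show the sequence these members carry. They run from 250 bases before to 50 bases after the start, 5′ to 3′ on the gene's strand, and come from RefSeq on GRCm38.p6, while the submitters' processing notes name GRCm39. Of the 45 members, 26 had a window, among them neither Pitx1 nor Hoxc10 nor Hoxc11. The Hoxd windows lie at chr2:74704365-74704664, chr2:74697513-74697812 and chr2:74691641-74691940 on the plus strand, and that of Shox2 at chr3:66981722-66982021 on the minus strand. Capitals mark matches, on either strand, to 6 motifs searched. They are the homeodomain core TAATTA, the joint Pbx and Hox site TGATTNAT, the site GGATTA of the class that Pitx1 belongs to, the Meis site TGACAG, the T-box core AGGTGTGA and the TATA box, TATAAA. No match overlapped another.
Hoxd8: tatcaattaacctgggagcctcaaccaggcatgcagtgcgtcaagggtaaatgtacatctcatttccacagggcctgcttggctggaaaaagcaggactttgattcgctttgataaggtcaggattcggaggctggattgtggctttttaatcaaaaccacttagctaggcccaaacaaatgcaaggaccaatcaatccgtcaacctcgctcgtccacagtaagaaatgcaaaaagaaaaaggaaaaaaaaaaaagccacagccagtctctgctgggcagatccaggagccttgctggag
Hoxd9: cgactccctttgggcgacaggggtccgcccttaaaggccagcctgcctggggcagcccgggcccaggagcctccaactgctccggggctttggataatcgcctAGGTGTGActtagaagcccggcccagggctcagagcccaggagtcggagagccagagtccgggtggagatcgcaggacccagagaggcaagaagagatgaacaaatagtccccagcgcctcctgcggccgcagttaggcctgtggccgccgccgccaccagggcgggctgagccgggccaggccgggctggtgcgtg
Hoxd10: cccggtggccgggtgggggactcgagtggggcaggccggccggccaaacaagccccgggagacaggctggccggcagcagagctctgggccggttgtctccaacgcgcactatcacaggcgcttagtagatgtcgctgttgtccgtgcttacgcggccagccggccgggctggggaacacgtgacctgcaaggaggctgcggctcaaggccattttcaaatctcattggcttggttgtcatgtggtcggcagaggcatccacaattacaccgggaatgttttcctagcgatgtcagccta
Shox2: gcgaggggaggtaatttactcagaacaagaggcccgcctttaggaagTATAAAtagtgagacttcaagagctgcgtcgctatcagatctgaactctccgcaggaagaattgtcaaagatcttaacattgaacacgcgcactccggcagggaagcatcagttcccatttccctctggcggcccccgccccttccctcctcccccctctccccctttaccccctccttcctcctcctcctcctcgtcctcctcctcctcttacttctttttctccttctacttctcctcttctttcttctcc
The Hoxd9 window held the T-box core at position 104 and the Shox2 window the letters TATAAA at position 48, while those of Hoxd8 and Hoxd10 held no match. Positions are counted from 250 bases before the start, and matches were taken at any position. Of all 32851 windows, 1.28% held the T-box core and 13.6% TATAAA, against 1 and 7 of the 28 windows of members. The homeodomain core was in 5.29% of all windows, the joint site in 3.22%, the Meis site in 19.2% and the Pitx1 class site in 7.06%, and in 2, 2, 2 and 0 of the member windows. GC content was 46.7%, 68.3%, 62.7% and 53.3% in the order printed.

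In the Hoxa cluster the most posterior genes varied, and Hoxa9 and Hoxa10 just before them were not called by edgeR's test with TMM scaling. Hoxa11, the partner of Hoxd11 in the lower leg, stood at 10.0 and 3.67 normalised CPM in the fat pad, against 12.5 and 9.39 in tendon and 0.735 and 0.616 in muscle. The fat pad and tendon overlapped, and both lay above muscle. Fat pad over muscle was 3.34 ± 0.55 (edgeR adjusted p = 0.0019), kept with each library left out, and tendon over muscle was 4.02 ± 0.56 (adjusted p = 0.00802, 0.0648 and 0.075 without muscle library 2 and without library 1). The fat pad over tendon difference was -0.68 ± 0.48 and not called, while in the TPM columns it was -1.95 and called by limma (adjusted p = 0.00341). Of the exonic bases of Hoxa11, 35.0% are shared with a gene on the other strand, and the counting is not stated to use strand. Hoxa13, which patterns the foot, stood at 1.45 and 0.765 in the fat pad, against 1.61 and 3.20 in tendon and 0.367 and 0.572 in muscle. Tendon over muscle was 2.35 ± 0.70 for Hoxa13 (edgeR adjusted p = 0.0484) and was lost without any 1 library but fat pad library 2 (0.0501 to 0.235) and with DESeq2's size factors.

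Hoxa10, which patterns the thigh, was among the 3 highest Hox genes per length in every tissue and stood at 22.5 and 28.7 normalised CPM in the fat pad, against 33.7 and 35.7 in tendon and 25.7 and 24.4 in muscle. The log2 fold change of fat pad over muscle was 0.03 ± 0.19 and fat pad over tendon -0.44 ± 0.19 (edgeR adjusted p = 0.887 and 0.0869). Hoxa9, also active in blood precursors, stood at 32.1 and 22.9 in the fat pad, against 20.2 and 13.8 in tendon and 22.1 and 20.3 in muscle, with no call by edgeR. Hoxa7 stood at 12.6 and 14.0 in the fat pad, against 7.71 and 7.74 in tendon and 11.1 and 13.6 in muscle, with fat pad over tendon at 0.79 ± 0.23 (edgeR adjusted p = 0.0214). That call was lost without fat pad library 2 or either tendon library (0.0569 to 0.073) and with scaling by total counts, and it turned to -0.61 in the TPM columns. The anterior and central genes Hoxa4, Hoxa5 and Hoxa6 were lowest in the fat pad, at 0.310 and 0.356, 1.17 and 1.10, and 0.122 and 0.0889. In tendon they stood at 0.927 and 1.36, 3.04 and 2.54, and 1.21 and 0.797, and in muscle at 2.67 and 2.86, 1.98 and 2.58, and 0.906 and 1.03. Fat pad over muscle was -3.05 ± 0.58 for Hoxa4 (edgeR adjusted p = 0.00373), kept with each library left out. It was -3.19 ± 0.80 for Hoxa6 (adjusted p = 0.0122, 0.0543 without muscle library 2). The fat pad over tendon difference was -3.24 ± 0.80 for Hoxa6 (edgeR adjusted p = 0.0113), and -2.86 without tendon library 1, where the call was lost. Hoxa6 had 11 and 10 counts in the fat pad. It passed the filter on low counts only through tendon and muscle, so the direction of both its calls carries no weight. The tendon calls of Hoxa4 (-1.78 ± 0.56, adjusted p = 0.0297) and Hoxa5 (-1.29 ± 0.45, adjusted p = 0.0438) were lost in 5 and in 6 of the 6 fits without 1 library, and that of Hoxa5 also with DESeq2's size factors.

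Hoxb genes were low in all tissues, and none passed 6 normalised CPM. Hoxb7 was the highest of them in the fat pad, at 5.67 and 2.64 in the fat pad, against 2.47 and 1.59 in tendon and 1.15 and 1.01 in muscle, with no overlap between tissues in normalised CPM. In the deposited TPM of Hoxb7 the order was reversed, with tendon, at 15.36 and 15.59, above the fat pad, at 13.22 and 6.365. The log2 fold change of fat pad over muscle was 1.94 ± 0.55 (edgeR adjusted p = 0.0204), a call lost without fat pad library 1 or either muscle library (0.0848 to 0.107). Hoxb3 went the other way, at 0.553 and 0.382 in the fat pad, against 3.08 and 2.46 in tendon and 1.74 and 2.13 in muscle. Fat pad over tendon was -2.56 ± 0.53 and fat pad over muscle -2.05 ± 0.52 (edgeR adjusted p = 0.00543 and 0.0133, the call over muscle being lost at 0.0723 without muscle library 2). Of the exonic bases of Hoxb3, 52.9% are shared with a gene on the other strand, from which reads cannot be told apart without strand. For Hoxb6 the fat pad lay below tendon, with a log2 fold change of -2.00 ± 0.60 (edgeR adjusted p = 0.025). For Hoxb8 it was -3.46 ± 1.00 (edgeR adjusted p = 0.0218). Both calls were lost without either fat pad library or tendon library 1. The log2 fold change was then -2.07 to -1.53 for Hoxb6 and -3.73 to -2.79 for Hoxb8. Reads of Hoxb8 numbered 10 and 8 in the fat pad, 106 and 48 in tendon, and 15 and 8 in muscle. Hoxb8 passed the filter on low counts only through tendon, so the direction of its call carries no weight. For Hoxb2 the fat pad lay above tendon by 1.73 ± 0.60 (edgeR adjusted p = 0.0424), a call lost in 5 of the 6 fits without 1 library (0.0705 to 0.133), with scaling by total counts and in the TPM columns. No Hoxb gene was called between tendon and muscle.

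**Figure D3:**
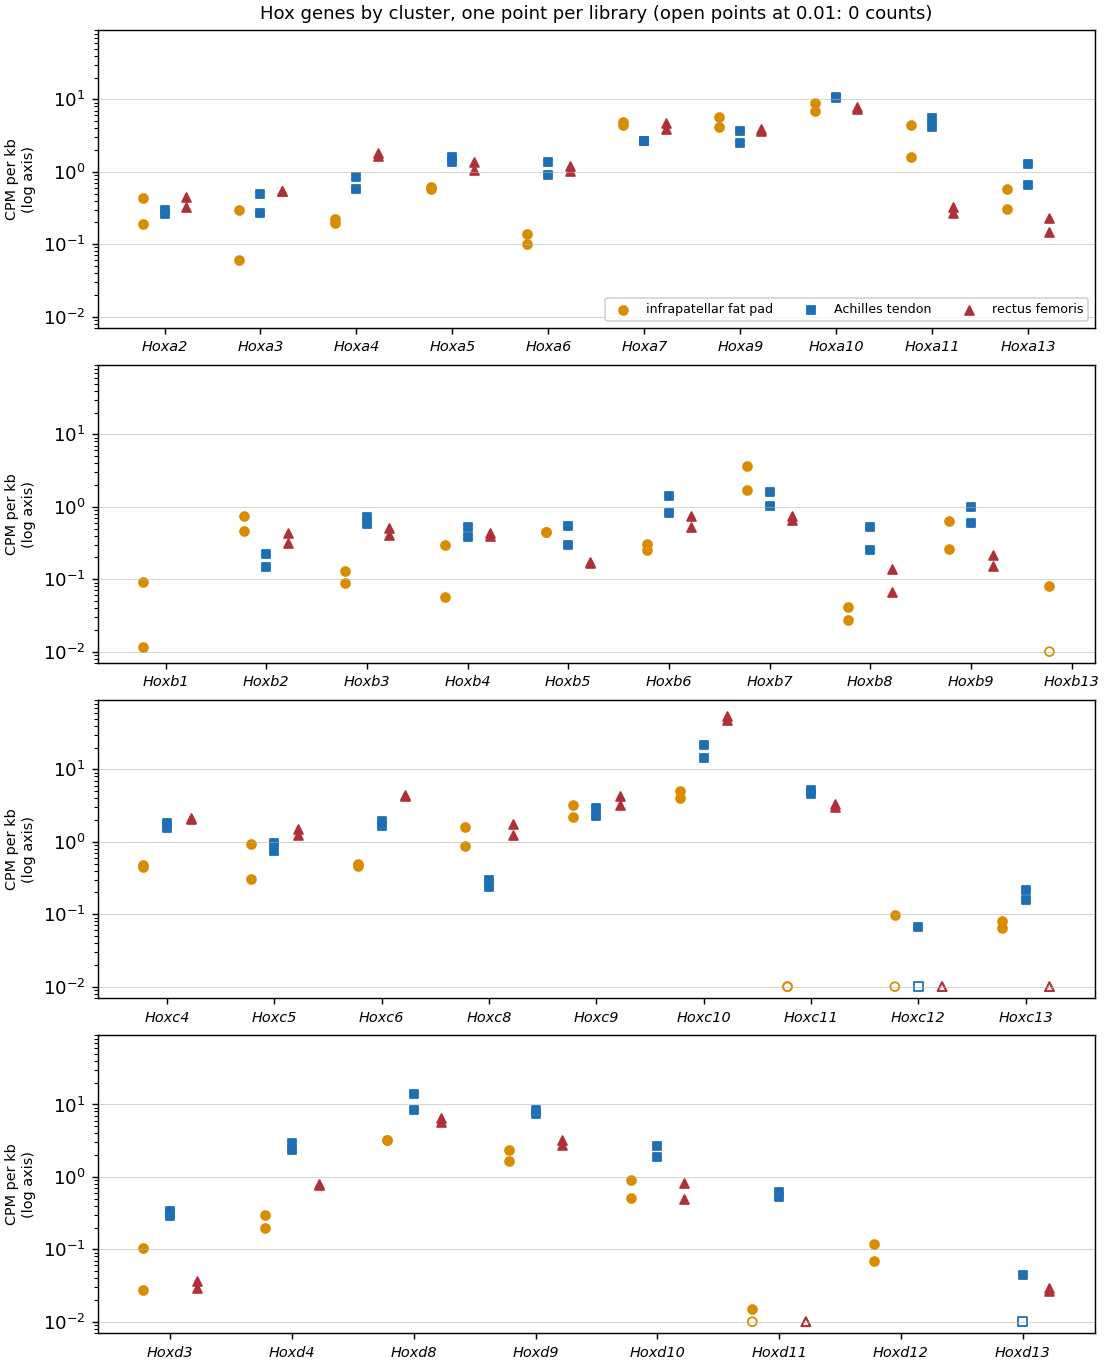
Level of the Hox members shown, in each library (points) as normalised CPM per kilobase of exon on a log axis, with 1 panel per cluster and genes ordered from anterior to posterior, in the fat pad, tendon and muscle. Open points at the lower edge are libraries with 0 counts, as for Hoxc11 in the fat pad, and a gene with no points for a tissue is not listed there.

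Per kilobase of exon, the leading Hox gene was Hoxa10 in the fat pad and Hoxc10 in tendon and muscle. The 5 highest in the fat pad were Hoxa10 (7.84 normalised CPM per kb, mean of 2), Hoxa9 (4.93), Hoxa7 (4.63), Hoxc10 (4.54) and Hoxd8 (3.20). In tendon they were Hoxc10 (18.0), Hoxd8 (11.3), Hoxa10 (10.6), Hoxd9 (7.88) and Hoxc11 (4.90), and in muscle Hoxc10 (51.0), Hoxa10 (7.66), Hoxd8 (6.14), Hoxc6 (4.39) and Hoxa7 (4.31). Neighbouring places overlapped between libraries, among them Hoxa9 to Hoxc10 in the fat pad, Hoxd8 and Hoxa10 in tendon and Hoxc6 and Hoxa7 in muscle. Hoxa11 overlapped with Hoxc11, the fifth in tendon, and Hoxa9 and Hoxc9 with Hoxa7, the fifth in muscle. In the deposited TPM, Hoxc10 led in both libraries of tendon and muscle, and in the fat pad the libraries differed, with Hoxc10 at 19.7 and 15.9 TPM and Hoxa10 at 12.9 and 17.0. Across members, TPM and counts per length had a Spearman rho between 0.889 and 0.978 in a library, over 38 to 43 members that share length and depth.

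Summed over the 4 clusters, the Hox genes reached 46.1 and 41.5 normalised CPM per kb in the fat pad, against 82.0 and 91.9 in tendon and 105 and 99.8 in muscle. Hoxa genes made up 51.7% and 50.7% of that sum in the fat pad, 33.5% and 27.4% in tendon, and 20.02% and 21.88% in muscle. Hoxc genes made up 22.2% and 24.3% in the fat pad, 32.6% and 36.9% in tendon, and 67.3% and 64.1% in muscle, where Hoxc10 alone accounted for 51.7% and 47.7%. Hoxd genes held 12.6% and 16.5% in the fat pad, 26.1% and 31.1% in tendon, and 9.735% and 11.01% in muscle. Hoxb genes held 13.5% and 8.57%, 7.89% and 4.56%, and 2.92% and 3.01% in the same order. With TMM scaling the summed level of the Hoxa cluster lay between 21.0 and 27.5 in all libraries, and this closeness rests on that scaling. Genes of paralog groups 9 to 13 made up 60.7% and 62.0% of the sum in the fat pad, 64.6% and 65.6% in tendon, and 74.0% and 69.9% in muscle, and genes of groups 1 to 4 made up at most 9.69% in any library. These sums are descriptions and were not tested. They depend on the TMM scaling factors, which were 1.09 and 1.06 in the fat pad, 1.32 and 1.17 in tendon, and 0.726 and 0.776 in muscle. Total counts in place of TMM moved the median of all genes by 0.73 (log2) for tendon over muscle. The order of tendon and muscle in the summed level therefore rests on the scaling, whereas shares within a library do not depend on it.

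**Figure D4:**
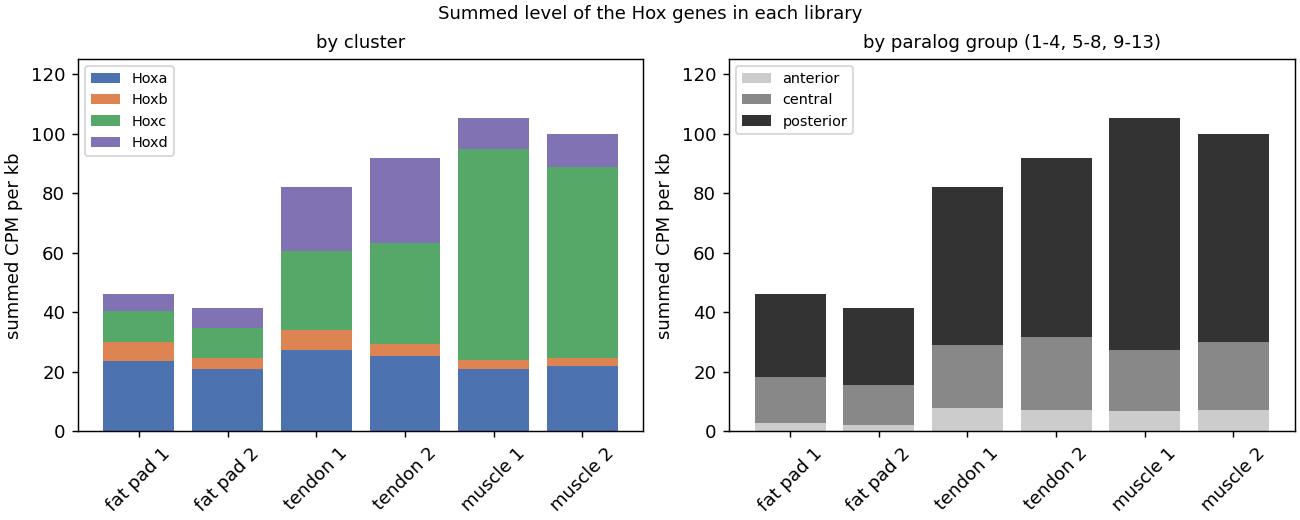
Summed normalised CPM per kilobase of all Hox members in each library, stacked by cluster (left) and by paralog group (right), with fat pad, tendon and muscle libraries from left to right. The Hoxc part is 22.2% and 24.3% of the bar in the fat pad and 67.3% and 64.1% in muscle. With TMM scaling the Hoxa part lies between 21.0 and 27.5 normalised CPM per kb.

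The libraries of a tissue differed in some members by more than counting error. Library 2 over library 1 had a median ratio over members of 0.965 in the fat pad, 0.847 in tendon and 1.05 in muscle, over the 36, 40 and 36 members whose higher library had 20 counts or more. In the fat pad the ratio was 0.367 for Hoxa11 (95% interval 0.326 to 0.413, exact conditional binomial), 0.207 for Hoxa3 (0.143 to 0.294) and 0.465 for Hoxb7 (0.402 to 0.538). It was 2.44 for Meis1 (2.05 to 2.91), 3.07 for Hoxc5 (2.41 to 3.95) and 5.26 for Hoxb4 (2.92 to 10.3). In the fat pad 3 members had a ratio over 2 and 6 under 0.5. In tendon 4 members had a ratio under 0.5, among them Tbx5 at 0.115 (0.0480 to 0.239), and the ratio of Hoxa13 was 1.99 (1.59 to 2.49). In muscle the widest ratio was that of Lmx1b, 2.06 (1.29 to 3.37). These ratios compare libraries and not conditions.

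**Figure D5:**
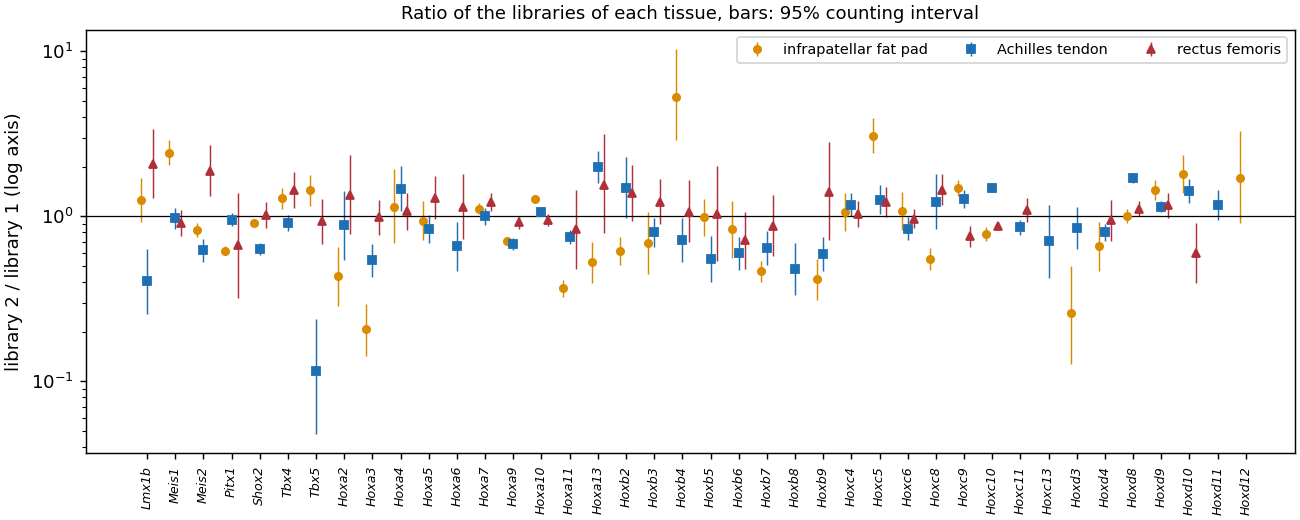
Ratio of library 2 to library 1 of each tissue for the members shown, whose higher library had 20 counts or more (points, log axis) with the 95% counting interval (bars), for the fat pad, tendon and muscle. In the fat pad Hoxb4 lies at 5.26 and Hoxa3 at 0.207, and in tendon Tbx5 lies at 0.115.

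Of 9 other TALE class genes, the partners of Hox proteins, 2 were higher and 3 lower in the fat pad than in muscle, 1 higher and 4 lower relative to tendon, and 1 was higher in tendon than in muscle. Of all genes 29.8% were higher and 29.6% lower in the first comparison, 27.2% and 31.4% in the second, and 13.3% and 12.7% in the third. The median log2 fold changes of the list were 0.16, -0.41 and 0.70. Pbx2 stood at 1.33 and 2.23 normalised CPM in the fat pad, against 26.5 and 25.4 in tendon and 23.4 and 24.5 in muscle, and fat pad over muscle was -3.75 ± 0.30 (edgeR adjusted p = 9.15e-05). Pknox2 stood at 4.93 and 2.16 in the fat pad, against 24.9 and 60.5 in tendon and 93.8 and 117 in muscle, with fat pad over muscle at -4.90 ± 0.58 (edgeR adjusted p = 0.000434). Meis3 stood at 15.2 and 18.2 in the fat pad, against 8.63 and 7.28 in tendon and 3.94 and 2.95 in muscle, with fat pad over muscle at 2.28 ± 0.28 (edgeR adjusted p = 0.000508).

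Of 45 limb bud patterning genes 37 were tested. In the fat pad 12 were called higher and 11 lower than muscle, 1 was higher and 19 lower than in tendon, and 15 were higher and 1 lower in tendon than in muscle, with medians of 0.40, -1.52 and 1.28. The shares of all genes were 29.8% and 29.6%, 27.2% and 31.4%, and 13.3% and 12.7% in that order. Hand2, a factor of the posterior limb bud, stood at 3.16 and 2.84 normalised CPM in the fat pad and 3.04 and 2.89 in tendon, and had 0 counts in muscle. Osr2, a factor of joints and connective tissue, stood at 41.0 and 42.1 in the fat pad, against 5.14 and 2.69 in tendon and 2.84 and 2.82 in muscle, and was the gene of the list called higher in the fat pad than in tendon (3.41 ± 0.34, adjusted p = 0.000229 by edgeR's test). Pitx3, a relative of Pitx1, had 0 counts in the fat pad and stood at 4.34 and 3.78 in tendon and 6.88 and 6.43 in muscle. En1, the ventral limb factor, stood at 0 and 0.0800 in the fat pad, against 5.10 and 6.28 in tendon and 4.61 and 6.49 in muscle. Isl1, which acts before Tbx4 in the hindlimb field, stood at 0 and 0.133 in the fat pad, against 5.85 and 2.46 in tendon and 0 and 0 in muscle. Tbx15 stood at 40.6 and 21.4, 124 and 153, and 430 and 384 in the same order, with tendon over muscle at -1.56 ± 0.33 (edgeR adjusted p = 0.0198). Markers of satellite cells, the precursors of muscle fibres, summed to 0.177 and 0.196 normalised CPM in the fat pad, against 7.29 and 31.1 in tendon and 36.3 and 46.6 in muscle, with Myf5 and Myod1 at 0 counts in the fat pad.

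Of 32 Polycomb and Trithorax genes and related regulators, whose proteins keep Hox genes silent or active, 29 were tested. In the fat pad 3 were higher and 16 lower than in muscle, 5 were higher and 17 lower than in tendon, and 5 were higher and 1 lower in tendon than in muscle, with medians of -0.95, -0.88 and 0.01, beside 29.8% and 29.6%, 27.2% and 31.4%, and 13.3% and 12.7% of all genes. Kmt2b, a Trithorax histone methyltransferase, stood at 4.05 and 5.49 normalised CPM in the fat pad, against 49.0 and 47.8 in tendon and 34.8 and 43.5 in muscle. The Polycomb genes Ring1 and Phc1 were lower in fat pad than muscle, with log2 fold changes of -2.48 ± 0.25 and -3.68 ± 0.32 (edgeR adjusted p = 0.000214 and 0.00012), and Eed was higher in the fat pad than in tendon by 1.19 ± 0.18 (adjusted p = 0.00126). Pcgf2 stood at 0.476 and 0.649 in the fat pad, against 12.1 and 14.9 in tendon and 2.77 and 3.30 in muscle.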

How the data were processed

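RNA of 6 libraries was sequenced, 2 each from the infrapatellar fat pad, Achilles tendon and rectus femoris, and grouped by the label that names the 3 tissues. The authors deposited whole-number read counts per gene and TPM for protein-coding genes, per the file headers. Per the submitters' processing notes, Bowtie2, RSEM 1.3.1, DESeq2 1.4.5 and GRCm39 were used, in roles not given, and the counting method and strand setting were not stated in what was used here. The authors' deposited log2 fold change, p-value and −log10 p of library 1 against library 2 were not used. No per-sample column was left unused (0).

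Counts of 16964 genes listed for all tissues were tested with edgeR 4.0.16 in R 4.3.3 (TMM, filterByExpr, glmQLFit and glmQLFTest on 1 term per tissue, Benjamini-Hochberg adjusted p under 0.05), leaving 15856 genes and a common biological coefficient of variation of 0.336. Library sizes are the totals of the deposited tables. Each standard error is the size of the log2 fold change over the root of its F statistic. Alternatives were DESeq2 1.42.0, other scalings, no filter, fewer libraries, and limma 3.58.1 on log2(TPM + 1), which understates changes of low genes. With 0 counts in both libraries of a tissue, a fold is a bound against 3 counts per library. Exon lengths and overlaps are from GENCODE M21 (GRCm38). The fit was tested on simulated data.

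The members and lists were chosen with earlier results of these data known. All 7 factors that are not Hox genes are named, as are Hox genes called with at least 1 CPM in the higher tissue (up to 12 a direction) and the 5 highest per length in a tissue, and up to 4 list genes a direction called with at least 1 CPM. Other Hox genes given with values (among them Hoxa5, Hoxa6 over muscle, Hoxc9, Hoxc13 and Hoxd10) were chosen after their values were seen. The list of 13 noncoding genes of the Hox clusters had 0 genes in the count tables and was not analysed here. Values of some genes are not reported here, in the text or the plots by gene.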

Additional observations from a re-analysis of the deposited data

How the results depend on the processing

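With 1 library left out in turn, the lone library of a tissue being assumed to vary like the others, members called higher and lower numbered 4 to 5 and 6 to 11 for fat pad over muscle, 1 to 4 and 11 to 16 for fat pad over tendon (1 higher without tendon library 2), and 0 to 10 and 0 to 3 for tendon over muscle, where 0 and 0 is without muscle library 2 and 1 and 0 without muscle library 1. Calls kept in each of these fits numbered 4 of 6 and 6 of 9, 1 of 3 and 9 of 16, and 0 of 9 and 0 of 3.

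With total counts, 1 member was higher in fat pad than tendon, and 16 in tendon than muscle. With DESeq2's size factors 6 were higher for fat pad over tendon, and 7 with the DESeq2 Wald test, which had 5 lower for tendon over muscle. In the TPM columns, fat pad over muscle had 20 members lower at pseudocounts of 1 and 0.1 and 19 with a mean of at least 1 TPM, and fat pad over tendon had 0 higher in all 3. Hoxa7 turned to -0.7455, -0.8045 and -0.7455 for fat pad over muscle and to -0.6071, -0.6562 and -0.6071 for fat pad over tendon in these settings, and Hoxc9 to -1.357, -1.448 and -1.357 for fat pad over tendon. The cause was not tested. No other called member changed sign in any alternative that was run.

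Labels number the libraries of each tissue 1 and 2 without saying that a number is shared between tissues. The deviations of same-numbered libraries had correlations of -0.00126, -0.024 and -0.147 across 15856 genes. These values cannot tell whether same-numbered libraries share an animal or condition, since such an effect need not be alike between tissues. With the replicate number as a block, calls were 5 higher and 9 lower, 3 and 13, and 6 and 3. Genes below 1 CPM rest on few counts, and a count of 0 limits their level only to 3 counts.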

Other observations

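Members listed for the fat pad and not for the other tissues had few counts. Hoxb1 had 19 and 3 counts in the fat pad libraries, Hoxb13 had 16 and 0, and Hoxd12 had 16 and 34. Of the 45 members, 8 stayed below 1 normalised CPM in every library where they were listed.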
